A study of Homo sapiens with 6 samples.

Results

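The tubulin isotypes are the genes that encode the alpha- and beta-tubulin chains of microtubules. The 10 described here were chosen by name, with earlier results of these data known. They were 4 alpha-tubulin genes (TUBA1A, TUBA1B, TUBA1C, TUBA4A) and 6 beta-tubulin genes (TUBB, TUBB1, TUBB2A, TUBB3, TUBB4B, TUBB6), out of 61852 genes in the count table. All 10 were found in it. The libraries were poly(A)-selected RNA-seq of MEG-01, an established human megakaryoblastic leukaemia cell line. The control group (n = 3) carried the empty lentiviral vector pLKO.1, and the knockdown group (n = 3) carried sh2-MELK, a single short hairpin RNA against the kinase MELK, so the effect of the hairpin cannot be told apart from that of the loss of MELK. All 6 libraries came from the same cell line and share 1 batch label, and the series' design text calls the replicates of a group independent biological replicates. Its title speaks of megakaryocyte formation and platelet recovery.

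One alpha and one beta chain form a heterodimer, and heterodimers add end to end to build the microtubule wall. Isotypes of a family share most of their protein and differ mainly in the acidic C-terminal tail, where many of the enzymes that modify tubulin act. Megakaryocytes push out long microtubule-filled extensions that become platelets, and the ring of microtubules in a platelet is rich in TUBB1, the beta-tubulin of the megakaryocyte lineage. Newly folded chains pass through the chaperonin CCT and the tubulin cofactors. Cells also hold tubulin mRNA in check by autoregulation: when free heterodimers are in excess, TTC5 recognises the first residues of a nascent tubulin chain on the ribosome and, with SCAPER and the CCR4-NOT complex, sets off decay of the mRNA.

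The bases below are shown because they encode those first residues, which TTC5 recognises in the nascent chain and not in the mRNA. These are the first 12 coding bases of the principal transcript of each isotype in GENCODE release 29 on GRCh38, with the 3 codons after the start codon in capitals.
TUBA1B: atgCGTGAGTGC
TUBA1A: atgCGTGAGTGC
TUBA1C: atgCGTGAGTGC
TUBA4A: atgCGTGAATGC
TUBB: atgAGGGAAATC
TUBB4B: atgAGGGAAATC
TUBB2A: atgCGCGAGATC
TUBB6: atgAGGGAGATC
TUBB1: atgCGTGAAATT
TUBB3: atgAGGGAGATC
TUBA1A, TUBA1B and TUBA1C were identical over these bases, as were TUBB and TUBB4B, and TUBB3 and TUBB6.

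The far end of the coding sequence is shown because the listed beta-tubulin genes differ from each other there. TUBA1A and TUBA1B were identical over their last 30 coding bases. These are the last 30 coding bases of the beta-tubulin genes before the stop codon, with capitals for the bases that differ from TUBB, counted back from the stop codon.
TUBB: gatttcggtgaggaggccgaagaggaggcc
TUBB4B: TTCGAGgAGgaggCTgAGgaGgaggTggcc
TUBB2A: TTCGAGgAGgaggaggGcgaGgaCgaggcT
TUBB6: TTtGAGgAtgaggaAgAGgaGATCgaTgGA
TUBB1: gCAGAAATGgagCCAgAAgaTAaggGACAT
TUBB3: gaGGAGgAGTCggaggccCaGgGCCCCAAG
TUBB1 differed most from TUBB, at 20 of the 30 bases. Over the whole coding sequence TUBA1A and TUBA1B were 97.2% identical, TUBA1B and TUBA1C 96.8%, and TUBB1 was between 74.0% and 76.2% identical to the other beta-tubulin genes compared. Of the 100-base stretches of the principal transcript, 18.3% in TUBA1A, 37.2% in TUBA1B and 11.5% in TUBA1C also occurred in another gene, against 1.84% in TUBA4A, 5.10% in TUBB, 2.86% in TUBB4B and 0% in TUBB6 and TUBB1. How the authors' counting treated reads that match several genes is not stated in the labels, so the split of reads among TUBA1A, TUBA1B and TUBA1C is uncertain to that extent.

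Library totals ran from 18945176 to 21711313 counts. Libraries of the same group correlated at 0.994 to 0.996 in log2 CPM (counts scaled to equal library size) over genes, and libraries of different groups at 0.890 to 0.907. Each deposited value appears to be the reads of a gene with 0, 1, 2, 10 or 100 added, since 35797 genes (57.9%) held only those 5 values. This adds 22.6 counts on average (SD 38.9), which is small beside the 8 isotypes that average 500 counts or more and large beside TUBB1 and TUBB3, for which reads were modelled. MELK, the targeted gene, had 219, 206 and 238 counts in the control libraries against 16, 124 and 26 in the knockdown libraries. Its log2 fold change by edgeR's quasi-likelihood test was -1.98 ± 0.69 (SE; adjusted p = 0.104), and without knockdown replicate 2 it was -3.32 (adjusted p = 0.00271). With the added number modelled it was -3.38 (95% interval -3.86 to -2.96). Of 10 megakaryocyte markers, ITGA2B had a mean of 30693 counts, ITGB3 1037 and GP6 2149, while GP1BB, PF4, VWF, GP9 and PPBP were between 2.33 and 37.3, near the level of the added number. The summed level of these markers was 2168 to 2279 CPM in the control and 1228 to 1285 CPM in the knockdown. Most of this sum was ITGA2B. Of 8 tested members 1 was called higher, GP6 (log2 0.52). The 3 called lower were ITGA2B (-0.93), ITGB3 (-0.70) and GP1BA (-0.90). Summed erythroid markers went from 542 to 559 CPM down to 221 to 235 CPM (0 of 8 tested higher, 4 lower). Granulocyte and monocyte markers went from 97.6 to 106 CPM down to 54.3 to 68.9 CPM. Of these 8, FCGR1A (log2 2.79) and LYZ (0.27) were called higher and ITGAM (-2.48) lower. Stromal markers were at 2.99 to 13.1 CPM and 7.80 to 17.2 CPM (0 of 4 tested passed), and no member of any of these lists was at 0 in every library, which the added number alone can bring about. Of all genes tested, 8.12% were called higher and 8.43% lower, and of genes that average 500 counts or more 38.1% and 38.9%. At that depth 1 of 3 megakaryocyte markers was higher and 2 lower. Of 4 erythroid markers 0 were higher and 4 lower, and of 2 granulocyte and monocyte markers 1 was higher and 1 lower. The part of these marker shifts in the tubulin results was not tested.

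By edgeR's test, 5 of 9 tested isotypes were higher in the knockdown and 1 was lower at an adjusted p below 0.05 over all genes. Across the 28303 genes tested, 8.12% were called higher and 8.43% lower. Most of those genes have few reads, so the closer background is the 5038 genes that average 500 counts or more (the well-counted genes), of which 38.1% were called higher and 38.9% lower in a fit of their own. In that fit 6 of 8 isotypes were called higher and 1 lower. At that depth 79.2% of genes had control and knockdown values that did not overlap, as did 7 of the 8 isotypes. The median log2 fold change of the 8 isotypes in that fit was 0.29, against -0.002 over all its genes; with TUBB1, whose deposited values the added number distorts, the median of the 9 tested isotypes was 0.46, against 0.02 over all genes tested. In bulk RNA, a change in the share of cells of a kind and a change of RNA per cell cannot be told apart.

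**Figure D1:**
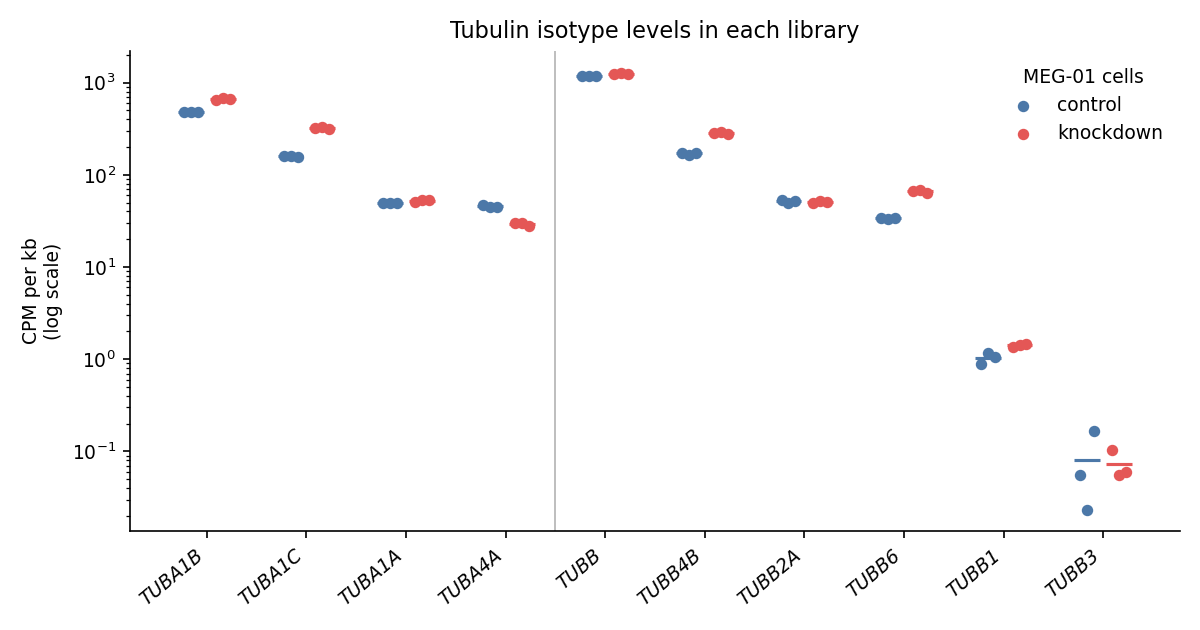
Level of each tubulin isotype in each library, in CPM per kb of merged exon, on a log axis. Points are the 3 control and 3 knockdown libraries and short lines their means. TUBB stood highest at 1178 in the control and 1248 in the knockdown. TUBB3, which shares most of its sequence with an overlapping locus, stood lowest.

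In the plot of levels by library, which are per length and so can be compared between genes, the order among the alpha genes in the control was TUBA1B at 479.6 ± 4.43 CPM per kb (SD, n = 3), TUBA1C at 158 ± 1.07, TUBA1A at 49.1 ± 0.319 and TUBA4A at 45.5 ± 1.06. Among the beta genes the order was TUBB at 1178 ± 12.3, TUBB4B at 170.6 ± 5.01, TUBB2A at 51.7 ± 2.21, TUBB6 at 33.7 ± 0.541, TUBB1 at 1.03 ± 0.146 and TUBB3 at 0.0813 ± 0.0744. Neighbours in each order stood apart by more than their SD. The place of TUBB3 is that of its counts, which sequence shared with an overlapping locus may lower. Only the order of TUBB2A and TUBB6 turned with another gene length, since with the longest transcript TUBB6 stood at 64.1 and TUBB2A at 56.0 in the control. In the knockdown TUBB6, at 65.9 ± 2.44, stood above TUBB2A, at 50.8 ± 1.20, with every length used.

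TUBA1B and TUBA1C, the main alpha-tubulins of dividing cells, were both higher after the knockdown. TUBA1C (ENSG00000167553, GRCh38 chromosome 12, 49188736 to 49274603, plus strand) had 15025, 14174 and 14907 counts in the control libraries against 29159, 31109 and 27561 in the knockdown libraries. Every knockdown library was far above every control library. The level rose from 733 ± 4.94 to 1495 ± 44.7 CPM (SD, n = 3 each), a 2.04-fold change (log2 1.03 ± 0.03, SE; edgeR adjusted p = 2.05e-07). Of the well-counted genes, 92.1% changed by less. The antisense gene ENSG00000258232 covers 14.4% of the TUBA1C exon bases, and its part in the TUBA1C value was not tested. TUBA1B (ENSG00000123416, chromosome 12, 49127782 to 49131397, minus strand) had 34745, 32915 and 35499 counts in the control libraries against 45436, 48375 and 44189 in the knockdown libraries. These groups did not overlap either. Its level rose 1.37-fold, from 1714 ± 15.8 to 2350.3 ± 49.6 CPM (log2 0.46 ± 0.02; edgeR adjusted p = 3.77e-06), and 62.5% of the well-counted genes changed by less. With limma-voom the value was 0.48 but its adjusted p was 0.758. An antisense gene, TUBA1B-AS1, covers 36.6% of the TUBA1B exon bases. It had 951 to 1751 counts per library and a log2 fold change of 0.59 (edgeR adjusted p = 0.00504); the strand setting of the counting is not given, and its part in the TUBA1B value was not tested.

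TUBA1A, an alpha-tubulin abundant in developing neurons, shares 490 exon bases with TUBA1C on the opposite strand (chromosome 12, 49184796 to 49189324, ENSG00000167552). It had 3422, 3263 and 3431 counts in the control libraries against 3391, 3684 and 3411 in the knockdown libraries. After scaling, the knockdown libraries lay just above the control libraries, at 179 ± 5.79 against 168 ± 1.09 CPM. The difference did not pass the test over all genes (log2 0.09 ± 0.03; edgeR adjusted p = 0.161), and it passed in 4 of 18 alternatives. TUBA4A was the single isotype called lower. It is an alpha-tubulin of brain, muscle and platelets, in which variants cause motor neuron disease (ENSG00000127824, chromosome 2, 219249711 to 219278170, minus strand). Its counts were 3888, 3554 and 3731 in the control libraries against 2436, 2490 and 2160 in the knockdown libraries. All knockdown libraries lay below all control libraries. TUBA4A fell from 186 ± 4.32 to 120.6 ± 5.31 CPM, which was 1.54-fold lower (log2 -0.62 ± 0.04; edgeR adjusted p = 1.71e-05), and 72.9% of well-counted genes changed by less. STK16, on the other strand, covers 15.4% of the TUBA4A exon bases and had a log2 fold change of 0.22 (edgeR adjusted p = 0.133).

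TUBB, the main beta-tubulin of these cells and of most dividing cells, differed by little. It lies at chromosome 6, 30720201 to 30725426, plus strand (ENSG00000196230). TUBB had 81068, 75321 and 81762 counts in the control libraries against 81491, 86695 and 77984 in the knockdown libraries. As CPM, the groups did not overlap but lay close together, at 3957 ± 41.4 and 4192 ± 100.5. TUBB was 5.94% higher (log2 0.08 ± 0.02; edgeR adjusted p = 0.0483). With library size alone it was at 0.16 (adjusted p = 0.000294). The call was lost in 11 of 18 alternatives, among them each of the 6 fits on 5 libraries, with adjusted p from 0.0709 to 0.122.

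TUBB4B and TUBB6, beta-tubulins found in many tissues, rose while TUBB stayed near its control level. TUBB4B (ENSG00000188229, chromosome 9, 137241213 to 137243707, plus strand) had 7467, 6703 and 7518 counts in the control libraries against 11793, 12402 and 10896 in the knockdown libraries. Its level rose 1.66-fold, from 360.2 ± 10.6 to 597 ± 19.4 CPM (log2 0.73 ± 0.04; edgeR adjusted p = 3.02e-06). The increase was larger than that of 81.1% of well-counted genes in either direction. TUBB6 (ENSG00000176014, chromosome 18, 12307669 to 12344320, plus strand) had 2869, 2624 and 2856 counts in the control libraries against 5346, 5666 and 4933 in the knockdown libraries. Its level rose 1.96-fold, from 139 ± 2.23 to 271 ± 10.1 CPM (log2 0.97 ± 0.04; edgeR adjusted p = 9.12e-07). In both genes all knockdown libraries lay above all control libraries. AFG3L2, whose exons cover 20.3% of the TUBB6 exon bases on the other strand, had 1411 to 2514 counts and a log2 fold change of 0.75 (edgeR adjusted p = 2.11e-05); its part in the TUBB6 value was not tested.

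**Figure D2:**
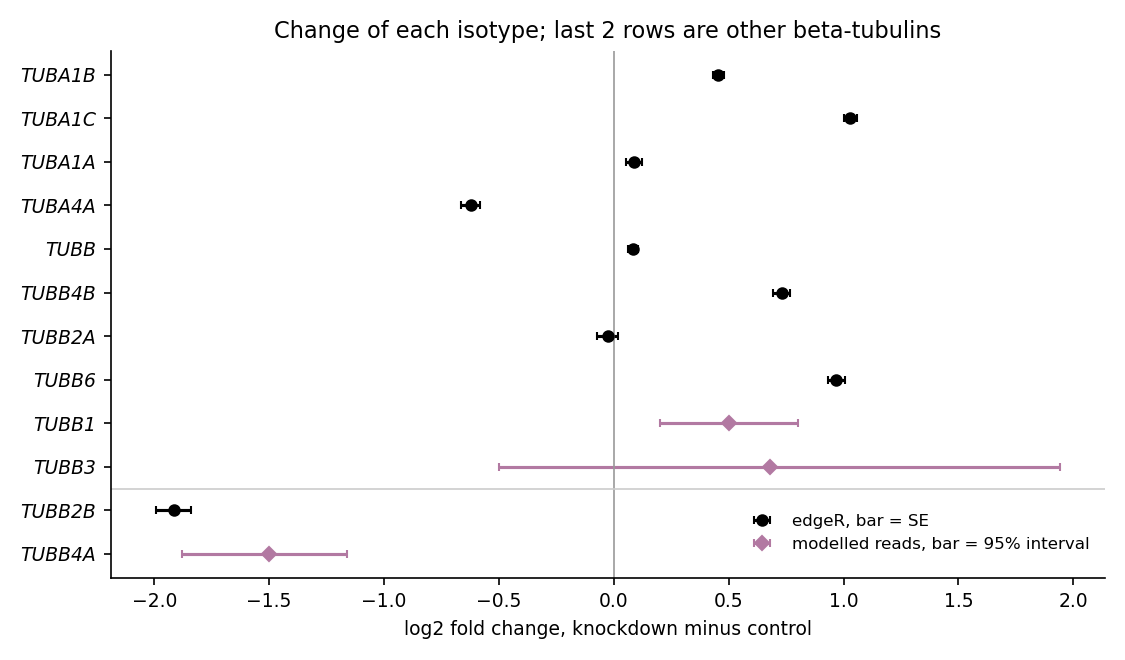
Log2 fold change (knockdown minus control) of each isotype and of TUBB2B and TUBB4A, which are other beta-tubulins. Circles are edgeR values with SE bars and diamonds are modelled values with 95% intervals, used below a mean of 500 counts. TUBA1C, TUBB6, TUBB4B and TUBA1B lie to the right, TUBA4A to the left, and TUBB2A at -0.03.

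TUBB2A and TUBB2B, beta-tubulins best known from neurons, are neighbours on chromosome 6 and 98.2% identical in coding sequence. TUBB2A (ENSG00000137267, 3153669 to 3157526, minus strand) had 1902, 1648 and 1826 counts in the control libraries against 1686, 1805 and 1656 in the knockdown libraries. The groups overlapped, at 89.3 ± 3.81 and 87.7 ± 2.07 CPM, and the difference did not pass the test (log2 -0.03 ± 0.04; edgeR adjusted p = 0.919). A correction for GC content and length gave 0.21 (adjusted p = 0.000382). TUBB2B (ENSG00000137285, 3224261 to 3231730, minus strand), which is not among the 10 isotypes, had 1773, 1678 and 1880 counts in the control libraries against 491, 500 and 389 in the knockdown libraries. TUBB2B fell from 88.6 ± 2.75 to 23.5 ± 2.46 CPM, which was 3.77-fold lower (log2 -1.92 ± 0.08; edgeR adjusted p = 1.21e-06). Of the 100-base stretches of TUBB2A, 56.4% occurred in another gene, mostly TUBB2B, so the level of each depends on how shared reads were counted. PSMG4, on the other strand of TUBB2B over 7.93% of its exon bases, had a log2 fold change of -0.61 (edgeR adjusted p = 0.000230).

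The promoters of this pair are shown because their coding sequences are nearly alike and their changes were not. They run from 250 bases before to 50 after the start site in RefSeq (GRCh38.p14, minus strand), TUBB2A at chr6:3157495-3157794 and TUBB2B at chr6:3227604-3227903, with capitals where the CCAAT box, the GC box (GGGCGG) or the TATA box (TATAAA) was found on either strand, none of them overlapping.
TUBB2A: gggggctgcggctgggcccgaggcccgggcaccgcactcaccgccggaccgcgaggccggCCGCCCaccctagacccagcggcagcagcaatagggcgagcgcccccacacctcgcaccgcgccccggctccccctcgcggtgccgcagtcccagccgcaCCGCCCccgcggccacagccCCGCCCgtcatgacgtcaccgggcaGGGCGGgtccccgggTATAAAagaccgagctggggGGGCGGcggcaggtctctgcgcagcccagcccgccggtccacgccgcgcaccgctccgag
TUBB2B: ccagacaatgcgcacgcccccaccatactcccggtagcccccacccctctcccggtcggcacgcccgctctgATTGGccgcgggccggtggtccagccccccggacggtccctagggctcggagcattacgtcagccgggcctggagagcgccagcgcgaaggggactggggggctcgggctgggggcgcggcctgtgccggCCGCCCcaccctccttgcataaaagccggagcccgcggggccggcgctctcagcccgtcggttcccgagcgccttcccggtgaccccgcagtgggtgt
The promoters were 47.4% identical when aligned. TUBB2A had 5 GC boxes, 1 TATA box and 0 CCAAT boxes, with 79.0% GC. TUBB2B had 1 GC box, 0 TATA boxes and 1 CCAAT box, with 74.7% GC. Of 35116 RefSeq promoters of the same length, 45.0% held a GC box, 34.6% a CCAAT box and 11.5% a TATA box. These matches describe the letters of the window only.

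TUBB1 and TUBB3 were near the floor of the table. TUBB1 (ENSG00000101162, chromosome 20, 59019254 to 59026654, plus strand) had 63, 79 and 75 counts in the control libraries against 93, 101 and 97 in the knockdown libraries. All knockdown values were higher, but the added number can be as large as the counts, and edgeR's test on the deposited values gave a log2 fold change of 0.46 ± 0.49 (adjusted p = 0.697). Modelled reads were 67.6 in the control and 95.7 in the knockdown, a log2 difference of 0.50 (95% interval 0.20 to 0.80; adjusted p = 0.00612 by the likelihood-ratio test over 26055 modelled genes). Without control replicate 1 this was 0.38 (adjusted p = 0.0734). At 1.42 ± 0.0620 CPM per kb in the knockdown, the platelet isotype was below TUBB, TUBB2A, TUBB4B and TUBB6 and above TUBB3. ATP5F1E, a subunit of the mitochondrial ATP synthase, covers 34.0% of the TUBB1 exon bases on the other strand. It had 1420 to 2247 counts and a log2 fold change of 0.52 (edgeR adjusted p = 0.00158), and its part in the TUBB1 value was not tested. TUBB3, the class III beta-tubulin of neurons (ENSG00000258947, chromosome 16, 89921392 to 89938761, plus strand), had 5, 2 and 15 counts in the control libraries against 9, 5 and 5 in the knockdown libraries. These groups overlapped, and TUBB3 did not enter edgeR's test. Modelled reads of 3.39 and 5.43 gave a log2 difference of 0.68 with an interval of -0.50 to 1.94 (likelihood-ratio adjusted p = 0.398). No difference was detectable at counts this low. ENSG00000198211, a locus on the same strand, covers 35.8% of the TUBB3 exon bases and holds 89.0% of its 100-base stretches. How reads that match both were counted is not given, so the counts may understate the level of TUBB3.

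By the model, 5 isotypes were called higher (TUBA1B, TUBA1C, TUBB1, TUBB4B, TUBB6) and TUBA4A lower, and TUBB was not called (log2 0.10, 95% interval -0.02 to 0.22; adjusted p = 0.234). Of all 26055 genes modelled, 18.5% were called higher and 18.4% lower. Of the other tubulins, TUBB4A, a beta-tubulin of oligodendrocytes and neurons, had 116, 119 and 102 counts in the control libraries against 37, 45 and 135 in the knockdown libraries. The value of 135 stands apart from its group by about the largest added number. Modelled TUBB4A reads fell from 107 to 37.8 (log2 -1.50, interval -1.88 to -1.16; adjusted p = 2.75e-11), a call that edgeR's test on the deposited counts did not make. The delta-tubulin gene TUBD1 had a modelled log2 difference of 0.62 (interval 0.20 to 1.04; adjusted p = 0.0132), where edgeR gave 0.31 with overlapping groups (adjusted p = 0.919), and the epsilon-tubulin gene TUBE1 0.06 (interval -0.20 to 0.36; adjusted p = 0.719), both of which serve centrioles. Of the 51 tubulin pseudogenes in the table, 37 held only the 5 added values, and the other 14 had means of 2.67 to 46.2 counts.

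Summed per length, the listed alpha-tubulin mRNAs rose more than the listed beta-tubulin mRNAs. The 4 alpha genes together were at 731, 732 and 735 CPM per kb in control libraries and at 1045, 1090.2 and 1051 in knockdown libraries, a 1.45-fold difference. The 6 beta genes were at 1444, 1413 and 1448 in control libraries and at 1631, 1696 and 1619.7 in knockdown libraries, a 1.15-fold difference. In neither sum did the groups overlap. TUBB2B, which fell from 88.6 to 23.5 CPM, is not one of the 6 and so is not in the beta sum or in its shares. The ratio of the alpha to the beta sum went from 0.511 ± 0.00648 to 0.644 ± 0.00445 (SD, n = 3 each). The size of this ratio depends on the gene length used, here the merged exons. With 3 libraries a group an exact two-sided permutation test cannot give a p below 0.1, and no other test of these sums was made.

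**Figure D3:**
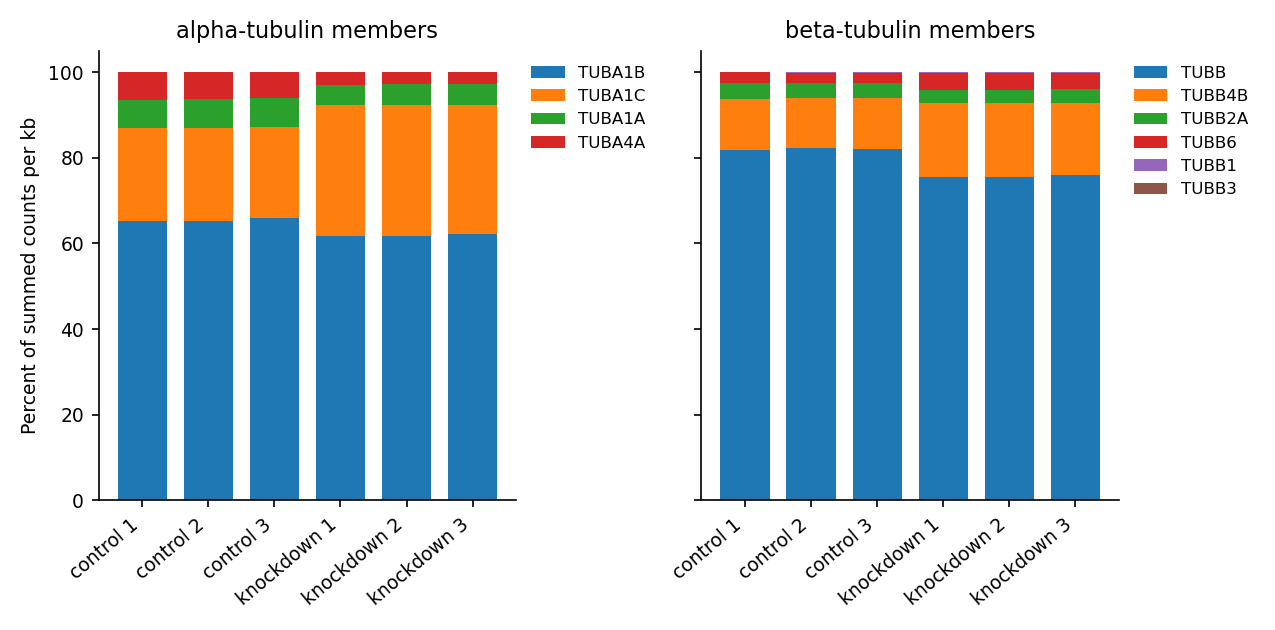
Share of each isotype in the summed counts per kb of the listed genes of its family (without TUBB2B), in percent, for each library. Libraries of a group are nearly alike, and in the knockdown TUBA1C and TUBB4B take a larger share and TUBA4A and TUBB a smaller one.

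The plot of shares shows how the mix changed. TUBA1B made up 65.5 ± 0.394% of the alpha sum in the control and 61.9 ± 0.350% in the knockdown (SD, n = 3), although its own level rose. TUBA1C went from 21.6 ± 0.214% to 30.4 ± 0.347%, and TUBA4A from 6.21 ± 0.162% to 2.78 ± 0.115%. TUBA1A went from 6.71 ± 0.0558% to 4.92 ± 0.107% with little change in its own level. On the beta side TUBB went from 82.1 ± 0.285% to 75.7 ± 0.257%, TUBB4B from 11.9 ± 0.190% to 17.2 ± 0.248% and TUBB6 from 2.35 ± 0.0137% to 3.997 ± 0.0665%. TUBB1 made up 0.0721 ± 0.0110% and 0.0861 ± 0.00420%. No share of these isotypes had overlapping groups apart from TUBB1, whose control replicate 2, at 0.0830%, lay above knockdown replicate 1, at 0.0827%. The shares depend on the gene length used, which these SDs do not include. With the principal transcript TUBA1B made up 71.6% in the control and 69.1% in the knockdown, and with the longest transcript 56.9% and 53.5%. TUBA1C rose and TUBB fell in share with every length used. Under the alternatives, 12 of 110 changes in share moved by at least the combined SD of the groups.

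Ratios within a library need no scaling between libraries. The pairs were picked with their values known and are descriptions. The count of TUBA1C over that of TUBA1B was 0.432, 0.431 and 0.420 in control libraries and 0.642, 0.643 and 0.624 in knockdown libraries. TUBB4B over TUBB went from a mean of 0.0910 to 0.142, and TUBB6 over TUBB from 0.0351 to 0.0647. TUBA4A over TUBA1B went from 0.108 to 0.0513. TUBB2B over TUBB2A went from 0.993 to 0.268. None of the ratios had overlapping groups, which the choice of pairs made likely. Each exact two-sided permutation p was 0.1, the smallest the design allows, before and after Benjamini-Hochberg adjustment over the 6 ratios. These p-values add nothing to the results of the single genes, since the pairs were picked on the same values.

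The genes of the autoregulation pathway gave no call higher. TTC5, which reads the nascent chain, had a log2 fold change of -0.08 ± 0.09 (edgeR adjusted p = 0.678), and with the GC and length correction it was called lower, at -0.39 (adjusted p = 0.00159). CNOT11, the CCR4-NOT subunit that links the complex to SCAPER, fell by 0.79 on the log2 scale (SE 0.07). SCAPER had a mean of 23 counts, at the level of the added number, and did not pass the test (-0.56 ± 1.12; adjusted p = 0.919). In the list 1 of 3 members was called lower and 0 higher, beside 8.43% and 8.12% of all genes tested. The 2 well-counted members gave 1 call lower and 0 higher, beside 38.9% and 38.1%.

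All 8 subunits of CCT, the ring that folds tubulin and actin, were called, 7 higher and CCT3 lower (-0.35). All are well counted, and of all well-counted genes 38.1% were called higher and 38.9% lower. CCT2 rose by 1.15 ± 0.07 (log2; edgeR adjusted p = 8.12e-06), and the median over the list was 0.78. The cofactors that fold and pair the chains, with prefoldin, were divided, with 3 of 13 higher and 5 lower. Of their 8 well-counted members 2 were higher and 5 lower, beside 38.1% and 38.9% of all well-counted genes. TBCA, which holds beta-tubulin, rose by 0.39 ± 0.06 (edgeR adjusted p = 0.00154), while TBCB, a partner of alpha-tubulin, fell by 0.19 (SE 0.05; adjusted p = 0.0396) and TBCD, which holds beta-tubulin, fell by 0.20 (SE 0.04; adjusted p = 0.00741). With the GC and length correction TBCA was called in the opposite direction (-0.18, adjusted p = 0.00291), TBCB turned to 0.05 (adjusted p = 0.363) and TBCD did not pass (-0.07, adjusted p = 0.102). With library size alone TBCD was at -0.12 and still called (adjusted p = 0.0396), and TBCB was at -0.12 and not called (adjusted p = 0.208). TBCB also lost its call in the fit with the replicate number as a block (-0.19, adjusted p = 0.0993) and in 5 of the 6 fits without 1 library, with adjusted p from 0.0861 to 0.165.

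**Figure D4:**
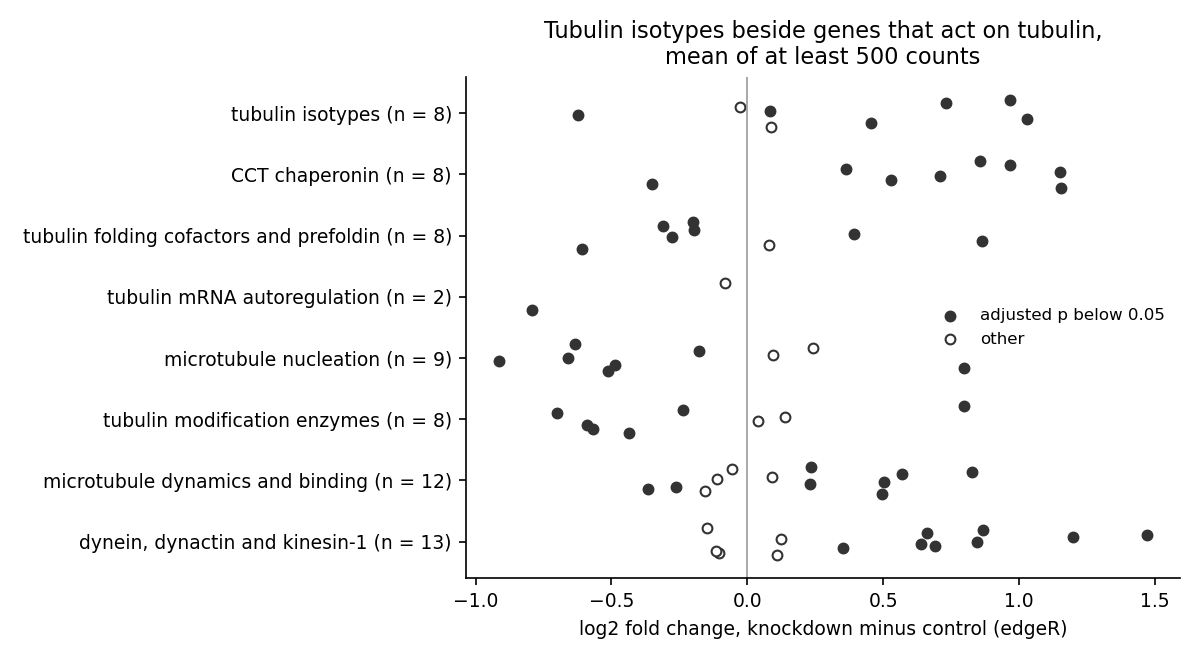
Log2 fold change (knockdown minus control, edgeR) of the tubulin isotypes and of genes that fold, nucleate, modify, bind or move along tubulin. Each point is a gene with a mean of at least 500 counts, filled where the adjusted p was below 0.05 in the fit over all 28303 genes tested. The calls given in the text for well-counted genes are from a fit of their own and differ for some genes. Nearly all CCT points lie right of 0, and most nucleation and modification points lie left of it.

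Of 22 microtubule nucleation genes, 3 were called higher and 8 lower. Of the 9 well-counted ones 2 were higher and 6 lower, beside 38.1% and 38.9% of all well-counted genes. The gamma-tubulin gene TUBG1 had a log2 fold change of 0.10 ± 0.05 (edgeR adjusted p = 0.291). It was called with the GC and length correction (0.29, adjusted p = 5.28e-06), with library size alone (0.17, adjusted p = 0.0263) and among well-counted genes (0.11, adjusted p = 0.0434). Its partner TUBGCP2 was at -0.18 ± 0.04 (adjusted p = 0.0270), a call lost in 5 of the 6 fits without 1 library (adjusted p 0.0646 to 0.115), and the GC and length correction gave 0.06. Of 21 tested enzymes that modify tubulin, 1 was called higher and 5 lower. Of the 8 well-counted ones 1 was higher and 5 lower, beside 38.1% and 38.9% of all well-counted genes. The gene called higher was VASH1, whose protein removes the terminal tyrosine of alpha-tubulin (0.80 ± 0.05; edgeR adjusted p = 1.81e-05). Its partner SVBP was at -0.16 ± 0.19 (adjusted p = 0.746) by edgeR, and its modelled reads were called lower (-0.32, interval -0.52 to -0.16; adjusted p = 0.0428). TTL, which adds the tyrosine back, was at 0.14 ± 0.08 (edgeR adjusted p = 0.379), and at -0.015 with the GC and length correction. HDAC6, a deacetylase of alpha-tubulin, fell by 0.57 (SE 0.06; adjusted p = 0.000327), and the acetylase gene ATAT1 was at -0.15 ± 0.17 (adjusted p = 0.738). TTLL12 fell by 0.70 (SE 0.04; adjusted p = 4.67e-06), and by 0.42 with the GC and length correction (adjusted p = 3.53e-09).

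Among 26 tested genes of microtubule dynamics and binding, 6 were called higher and 2 lower. Of the 12 well-counted ones 7 were higher and 3 lower, beside 38.1% and 38.9% of all well-counted genes. The plus-end protein gene MAPRE1 rose by 0.57 ± 0.06 (edgeR adjusted p = 0.000328), and by 0.30 with the GC and length correction (adjusted p = 3.85e-05). CKAP5, a microtubule polymerase, was at 0.49 ± 0.12 (adjusted p = 0.0204), but lost its call in 4 of the 6 fits without 1 library (adjusted p 0.0697 to 0.121), with no filter (adjusted p = 0.141) and with the GC and length correction (0.29, adjusted p = 0.0680). STMN1, which binds free heterodimers, was at -0.06 ± 0.07 (edgeR adjusted p = 0.776), but was called lower with the GC and length correction (-0.45, adjusted p = 6.18e-09). MAP4 was at -0.11 ± 0.04 (edgeR adjusted p = 0.0803), and was called lower with that correction (-0.10, adjusted p = 0.00379) and among well-counted genes (-0.09, adjusted p = 0.0269). Of 22 dynein, dynactin and kinesin-1 genes, 9 were called higher and 1, KLC4, lower (-1.10). Of the 13 well-counted ones 10 were higher and 0 lower, beside 38.1% and 38.9% of all well-counted genes. DYNC1H1, the heavy chain of cytoplasmic dynein, rose by 0.64 ± 0.07 (edgeR adjusted p = 0.000221) and the light chain gene DYNLL1 by 0.85 ± 0.05 (adjusted p = 1.38e-05). KIF5B, the main kinesin-1 motor, had few reads; edgeR gave -0.35 ± 0.36 (adjusted p = 0.672) and the model -0.46 (interval -0.70 to -0.22; adjusted p = 0.00110).

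The genes whose log2 CPM ran most alike with the most abundant alpha and beta isotype were sought among the other 5037 well-counted genes, by Pearson's r over the 6 libraries. For TUBA1B these were GPRC5C, BTG3 and ARID3B (r = 1.00, 0.999 and 0.999). For TUBB they were FZR1, POLDIP2 and SNRNP40 (r = 0.994, 0.990 and 0.988). The 6 points fall into 2 groups and share their scaling, so a high r mostly reflects the step between the groups and is given as a description.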

How the data were processed

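Counts came from 6 poly(A)-selected libraries of MEG-01 cells, 3 control and 3 knockdown, grouped by sample title. The authors deposited whole-number counts per gene in 1 table. Per the submitters' processing notes, the tools were R 4.3.3, DESeq2, HTSeq, STAR, fastp and FastQC, on GRCh38, with no roles given. The counting mode, strand, read length and annotation release are not stated there or in the labels. Gene models are from GENCODE release 29.

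Counts were fitted with edgeR 4.0.16 (TMM, filterByExpr at its minimum count of 10, robust quasi-likelihood test, no block), with Benjamini-Hochberg adjustment over all 28303 genes and a threshold of 0.05. Reads of low genes were modelled as a negative binomial (dispersion 0.00293) plus 0, 1, 2, 10 or 100 with equal chance, a likelihood-ratio test and 95% profile intervals. Family sums were over the listed isotypes only and used CPM per kb of merged exons, TMM scaled. Alternatives used limma 3.58.1 and DESeq2 1.42.0, other scalings and filters, the replicate block, a GC and length correction (99.9% of genes had both) and each library left out with the tested genes kept. 2 alternatives, the block on genes averaging 500 counts or more and the principal transcript's length, were chosen after seeing the data.

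The named genes were the 10 isotypes, MELK, a fixed set from the tubulin lists, and the 3 genes most alike to the most abundant alpha and beta isotype. TUBA8 and TBCE, of that set, were at the level of the added number, with modelled log2 intervals of -0.08 to 6.26 and -0.34 to 1.66. Some genes and sequences of the set are not reported here. The members and lists were chosen with earlier results of these data known.

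On simulated data, edgeR with filterByExpr (33990 genes) recovered 32.8%, 89.6% and 100% of log2 changes of 0.5, 1 and 2, with 26 unchanged genes among 174 calls. At a mean of at least 500 counts (5146 genes) it recovered 100% of each, with 7 among 207. The changes were planted in 67, 67 and 66 genes only, all with a mean of at least 500 counts. In the data 4683 of 28303 genes were called, so these rates do not carry over to the data or to low genes. The model's 95% intervals covered the planted value in 97.7% of 300 genes. Those genes were simulated from the model itself, with its dispersion and added numbers, so this coverage does not test these assumptions. The model recovered 24.7% of log2 changes of 0.5 at 8 to 64 reads and 91.7% at 64 to 1024 reads.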

Additional observations from a re-analysis of the deposited data

How the results depend on the processing

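TUBA1C (log2 1.00 to 1.10), TUBB4B (0.71 to 0.96), TUBB6 (0.94 to 1.24) and TUBA4A (-0.64 to -0.44) kept their direction and call in all 18 alternatives. The number of isotypes called was 5 to 7, against 6, and with 1 library left out it was 5 each time. Genes called numbered 3808 to 4064 without 1 library, against 4683, and 6528 with DESeq2. Leaving out a library gave log2 ratios of 0.52 to 0.55 for the alpha sum and 0.18 to 0.21 for the beta sum, and 5 to 6 modelled calls. As CPM of the whole library total, without TMM, the sums moved to 0.61 and 0.27, against 0.54 and 0.20.

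Some directions reversed, and with the GC and length correction TBCA and TUBB2A passed the test in the new direction. With library size alone, TUBB2A was at 0.047 and STMN1 at 0.017. With the GC and length correction, alone and with the block, TUBB2A was at 0.213 and 0.213, TUBGCP2 at 0.059 and 0.058, TBCA at -0.177 and -0.177, TBCB at 0.046 and 0.047, and TTL at -0.015 and -0.013. Without 1 library, TUBB2A ran from -0.055 to 0.0094 (highest without control replicate 1), ATAT1 from -0.25 to 0.020 (control replicate 1), TUBE1 from -0.65 to 0.10 (control replicate 2), TUBD1 from -0.14 to 0.97 (lowest without knockdown replicate 1) and STMN1 from -0.11 to 0.016 (knockdown replicate 1). The cause was not tested.

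Same-numbered libraries correlated at 0.10, -0.01 and -0.08 in their deviations from the group means, and 2 of 6 libraries correlated best with their own number, so the numbers were not taken as pairs. With the replicate block 4182 genes and 5 isotypes were called, and with the block on genes averaging 500 counts or more 3935 and 7. The block ended the calls of TUBB (0.08, adjusted p = 0.149) and TBCB and changed no other call among 38 results. The added number limits TUBB1, TUBB3 and TUBB4A, and shared sequence limits TUBA1A, TUBA1B, TUBA1C, TUBB2A and TUBB3.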
